A study of Mus musculus with 16 samples.

Results

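The 100 genes described here were those whose RNA was lowest with an unmutated short hairpin RNA relative to each of 3 other vectors in mouse primary forebrain neuronal cultures, 100 of 55335 genes in the count table. They were chosen from the measured values: counts were expressed as counts-per-million of the library total (CPM) and averaged over the 4 libraries of each group. Protein-coding genes other than Rtn4 with a mean of at least 5 CPM in each of the 3 other groups were eligible (10071 genes), and the 100 with the lowest ratio of the unmutated-hairpin mean to the lowest of the 3 other means were taken. The cultures were perinatal neurons transduced with a lentivirus, and all 16 libraries, in 4 groups of 4, came from such cultures. In the first group (shRNA in the labels) the vector carried the unmutated hairpin, in the next (shRNA_2bp) the same hairpin with 2 point mutations, and in the next (shRNA_5bp) with 5. The last group (Empty_Vector) received a vector without a hairpin. Mouse strain, culture age and the sequence and named target of the hairpin are not given in the sources used here, and it is not stated whether replicate libraries were independent cultures. The p-values therefore measure the spread between these libraries, which may be technical.

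A short hairpin RNA is trimmed by Drosha or Dicer, the enzymes that make microRNAs, and 1 strand is loaded as a guide into an Argonaute protein. A guide silences the transcript it was designed to pair with, and like a microRNA it can also lower other transcripts that pair only with its seed, bases 2 to 8 counted from the guide's 5′ end. Such seed sites act mostly from 3′ untranslated regions (UTRs), typically with modest decreases of the messenger RNA, and a change of bases within the seed changes which transcripts are recognised.

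The ratios of the 100 genes ran between 0.253 for Nxph2 and 0.645 for Chgb, with a median of 0.580, against a median of 1.20 over all eligible genes. Against the lowest of the 3 other means, 82 of the 100 were lowered less than 2-fold and 18 had a ratio under 0.5. The lowest of the 3 other means was the empty vector's for 52 genes, the 2-mutation hairpin's for 29 and the 5-mutation hairpin's for 19. Because the rule chose genes with a low unmutated-hairpin mean, little overlap follows largely from the choice. Its share over all eligible genes was not counted. In 99 of the 100 genes all 4 unmutated-hairpin libraries lay below all 12 others. The exception was Erbb4, whose highest unmutated-hairpin library (36.8 CPM) lay above its lowest other library (34.6 CPM, with the 2-mutation hairpin). The last genes taken were Ahsa2 (0.643), Lca5 (0.644) and Chgb (0.645), and the first left out were Ugdh (0.645), Bmpr2 (0.647) and Sema7a (0.649). The same rule applied to the mutated hairpins gave ratios between 0.037 and 0.281 for the 100 genes lowest with the 2-mutation hairpin and between 0.129 and 0.449 for the 100 lowest with the 5-mutation hairpin. Genes with a ratio of at most 0.65 numbered 103 for the unmutated hairpin, 1008 for the 2-mutation hairpin and 366 for the 5-mutation hairpin.

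Many of the 100 genes held the same short string in the 3′ UTR, which the rule did not use. Every 8-letter string present in the longest annotated 3′ UTR of at least 50 of 10006 eligible genes with a UTR was counted on the transcript strand (53356 strings). ATGAAACA stood furthest above its share in all eligible genes: 39 of the 100 genes held it (39%), against 4.82% of the eligible genes. Of 16109 strings of 7 letters, the first 2 places went to its own parts, TGAAACA (65% of the 100 genes, against 17.2%) and ATGAAAC (53%, against 12.2%). At least 1 of these 7-letter parts was present in 75 of the 100 genes (75%), against 22.9% of the eligible genes. The string was picked because it ranked first, so these shares are a description and carry no test.

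The sites below are shown because they carry that string in Rtn4, which had far lower counts with the unmutated hairpin, and in genes discussed by name. Each is 30 bases of a 3′ UTR, written 5′ to 3′ on the transcript strand with the shared 8 letters in capitals, from GENCODE vM21 transcripts with GRCm38 coordinates.
Rtn4, chr11:29742998-29743027, plus strand: gcttttagaaaggttttagttcATGAAACA
Tpd52, chr3:8930902-8930931, minus strand: tctttgaccaaatagttgatgaATGAAACA
Med9, chr11:59961013-59961042, plus strand: tgttcccattaacagcagtttcATGAAACA
Epm2a, chr10:11457775-11457804, plus strand: acaacacactgtatgtgcatacATGAAACA
Epm2a, chr10:11458375-11458404, plus strand: gtggttgggtctatggtgggaaATGAAACA
Rrm2b, chr15:37925483-37925512, minus strand: attgttaaagggagcaccagaaATGAAACA
Ccp110, chr7:118735744-118735773, plus strand: acttgcagtgtagctatctagaATGAAACA
Ccp110, chr7:118736231-118736260, plus strand: tgtaccaagaaaacatgattttATGAAACA
Prmt8, chr6:127689116-127689145, minus strand: ccgtaacagatgttacacagctATGAAACA
Kctd12, chr14:102980440-102980469, minus strand: gtatgtgcgcatttaaaaaaatATGAAACA
Kctd12, chr14:102976843-102976872, minus strand: ataataatatcacacttttctaATGAAACA
Ddit4, chr10:59950289-59950318, minus strand: acacgcccctcagtactgtagcATGAAACA
Elavl4, chr4:110204477-110204506, minus strand: tggttatatatttaaaacaaaaATGAAACA
Hif1a, chr12:73946517-73946546, plus strand: tgctaatattgtgtaattgattATGAAACA
Hif1a, chr12:73947171-73947200, plus strand: aatggagtaagtgaaacagttcATGAAACA
Cox6c, chr15:35932036-35932065, minus strand: tgctgacctgcgctcctgaactATGAAACA
Lpl, chr8:68906812-68906841, plus strand: tcactgagccaacttaactctgATGAAACA
Usp15, chr10:123113428-123113457, minus strand: atggagatgaagttatcaccacATGAAACA
Erbb4, chr1:68032188-68032217, minus strand: tataaatgaaattcaataaaatATGAAACA
Outside the 8 letters, of the 13 bases just before the match in Rtn4, the printed sites of the 100 genes shared between 1 (Rrm2b, Elavl4) and 7 (Usp15 and the second Hif1a site). Epm2a, Ccp110, Kctd12 and Hif1a each held the string at 2 places. The Erbb4 match lay at positions 7846 to 7853 of a 7855-base 3′ UTR, next to its annotated end.

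In Rtn4 the string lay at positions 991 to 998 of a 2302-base 3′ UTR. Rtn4 encodes Nogo, a reticulon of the endoplasmic reticulum, and was left out of the 100 by the rule. It had 31.7, 32.5, 30.7 and 30.6 CPM with the unmutated hairpin, against 123, 122, 120.3 and 114 with the 2-mutation hairpin, 871, 831, 856 and 881 with the 5-mutation hairpin and 840.3, 831, 864 and 863 with the empty vector. The log2 fold change against the empty vector was -4.82 ± 0.05 (SE) for the unmutated hairpin (edgeR quasi-likelihood test, Benjamini-Hochberg adjusted p = 8.86e-26), -2.77 ± 0.04 for the 2-mutation hairpin (adjusted p = 3.39e-22) and -0.06 ± 0.04 for the 5-mutation hairpin (adjusted p = 0.203). Rtn4 was thus lower with the unmutated and the 2-mutation hairpin and did not pass the test with the 5-mutation hairpin. Total counts ran between 36143806 and 41152791 per unmutated-hairpin library, 41618901 and 49824569 with the 2-mutation hairpin, 35521472 and 47401867 with the 5-mutation hairpin and 33795369 and 46187568 with the empty vector.

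**Figure D1:**
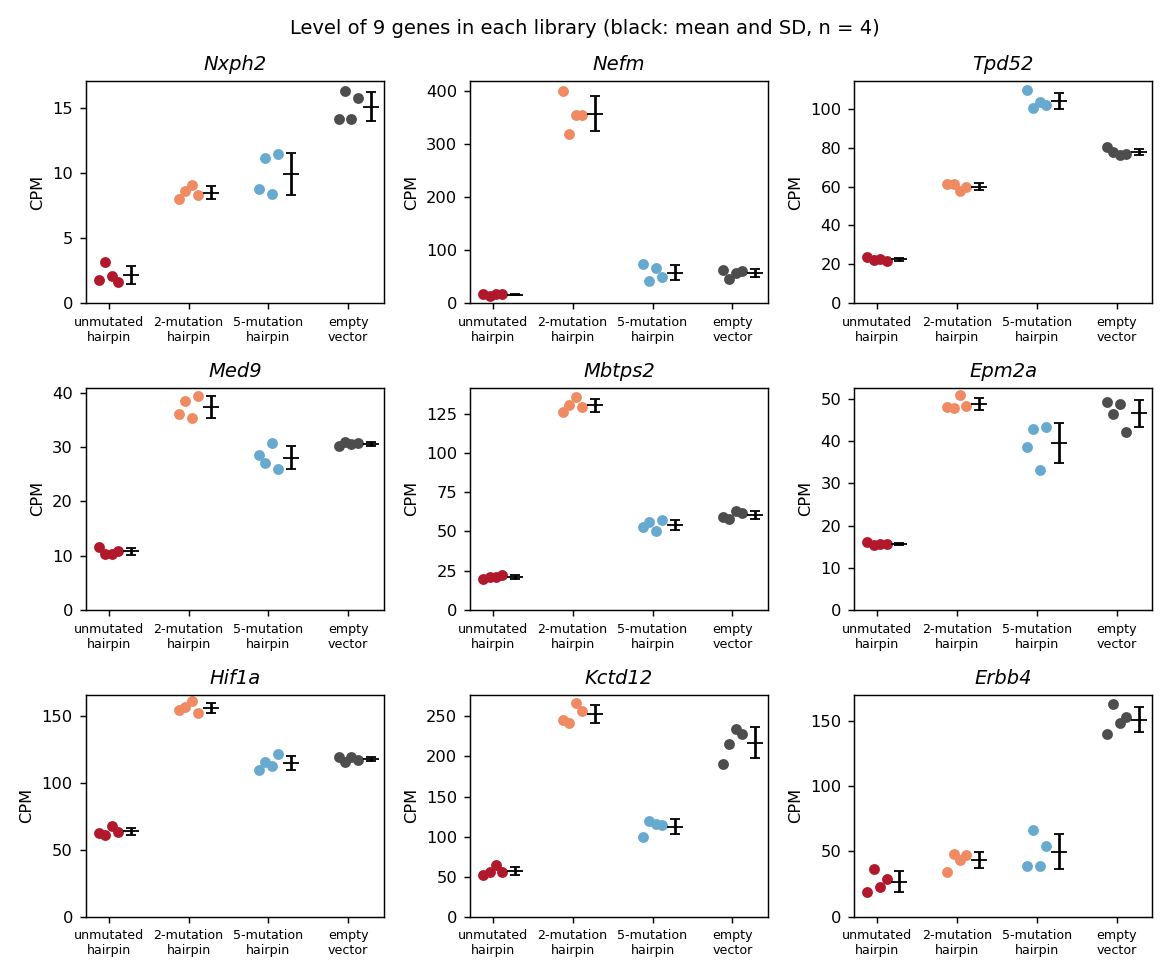
CPM (vertical axes, from 0) of 9 of the 100 genes in each of the 4 libraries of the 4 groups. Coloured points are libraries and black marks are the mean and SD of 4. All 4 unmutated-hairpin points lie lowest in every panel except Erbb4, where 36.8 CPM with the unmutated hairpin overlaps 34.6 CPM with the 2-mutation hairpin.

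Fold changes of the unmutated hairpin in the 100 genes are given as a description, because the rule chose the genes by them. In edgeR's fit over 19479 genes all 100 were lower with the unmutated hairpin than with the empty vector, where 40.3% of all genes passed in either direction and 19.5% were lower. All 100 were also lower than with the 2-mutation hairpin (62.7% of all genes passed, 31.5% lower) and than with the 5-mutation hairpin (55.3% passed, 28.5% lower). Their median log2 fold changes were -0.96, -1.15 and -1.06 in that order of comparison, against 0.01, 0.02 and -0.03 over all genes tested. In the same order, 42, 69 and 57 of the 100 were lowered more than 2-fold. The genes are grouped below by known role, a grouping made after the genes were known, and 22 of the 100 were put in no group.

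Of the 100, 16 are genes of neurons: proteins of the axon, synapse and cell surface, a neuropeptide and regulators of neuronal RNA or development. Nxph2, a secreted neurexophilin that binds neurexins, had 1.74, 3.13, 2.07 and 1.65 CPM with the unmutated hairpin, against 7.97, 8.60, 9.12 and 8.29 with the 2-mutation hairpin, 8.74, 11.1, 8.39 and 11.5 with the 5-mutation hairpin and 14.2, 16.3, 14.2 and 15.7 with the empty vector. Its 4 unmutated-hairpin libraries were the lowest of all 16, and both mutated hairpins also lay below the empty vector without overlap. Nefm, the medium neurofilament subunit of axons, had 17.0, 14.3, 16.7 and 17.2 CPM with the unmutated hairpin, against 400.2, 320.1, 355 and 355 with the 2-mutation hairpin, 73.0, 42.4, 66.4 and 49.2 with the 5-mutation hairpin and 61.6, 45.3, 56.3 and 60.9 with the empty vector. The unmutated-hairpin and the 2-mutation libraries stood at opposite ends, 16.3 ± 1.31 CPM against 358 ± 32.8 CPM (SD, n = 4 each), while the 5-mutation and empty-vector libraries overlapped.

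Kctd12, an auxiliary subunit of GABA-B receptors, had 52.5, 56.0, 64.4 and 56.1 CPM with the unmutated hairpin, against 245, 242, 266 and 257 with the 2-mutation hairpin, 99.3, 119.9, 116 and 115 with the 5-mutation hairpin and 190.2, 216, 235 and 228 with the empty vector. The 5-mutation libraries lay between the unmutated-hairpin libraries and the other 8. Prmt8, a brain-enriched arginine methyltransferase, had 38.4, 35.3, 40.4 and 37.2 CPM with the unmutated hairpin, against 81.2, 77.2, 70.8 and 82.8 with the 2-mutation hairpin, 97.2, 96.9, 90.4 and 90.5 with the 5-mutation hairpin and 109.7, 100.1, 102 and 95.2 with the empty vector. Elavl4 (HuD), an RNA-binding protein that stabilises neuronal messages, had 52.4, 50.98, 59.5 and 54.1 CPM with the unmutated hairpin, against 118, 117, 125 and 114 with the 2-mutation hairpin, 137, 146, 138 and 155 with the 5-mutation hairpin and 99.8, 94.9, 102 and 99.5 with the empty vector. In Elavl4 both mutated hairpins were above the empty vector and the unmutated hairpin below it, without overlap.

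Clmp, a cell adhesion molecule of the immunoglobulin superfamily, had 24.3, 22.5, 28.5 and 21.7 CPM with the unmutated hairpin, against 118, 106, 109 and 111 with the 2-mutation hairpin, 64.3, 54.8, 58.7 and 56.0 with the 5-mutation hairpin and 53.2, 43.7, 53.7 and 53.2 with the empty vector. Its 2-mutation libraries were higher than all others. Sox11, a transcription factor of immature neurons, had 105, 119, 116 and 112 CPM with the unmutated hairpin, against 201, 189, 207 and 194 with the 2-mutation hairpin, 384, 401, 380.1 and 403 with the 5-mutation hairpin and 166, 188, 204 and 196 with the empty vector, with the 5-mutation libraries far above the rest. Ptprf, the receptor phosphatase LAR of axons and synapses, had 167, 152, 169 and 164 CPM with the unmutated hairpin, against 300.4, 296, 308 and 318 with the 2-mutation hairpin, 335, 339.9, 349 and 337 with the 5-mutation hairpin and 289, 292, 304 and 305 with the empty vector. The groups with a mutated hairpin or the empty vector lay close together for Ptprf, and only the unmutated-hairpin group was apart by a wide margin.

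Of the neuronal genes, 3 mark inhibitory neurons in forebrain. Erbb4, the neuregulin receptor of cortical interneurons, had 18.6, 36.8, 23.0 and 28.7 CPM with the unmutated hairpin, against 34.6, 48.01, 43.1 and 47.0 with the 2-mutation hairpin, 38.7, 66.4, 38.8 and 54.4 with the 5-mutation hairpin and 139.9, 163, 148 and 153 with the empty vector. All 12 hairpin libraries lay far below the 4 empty-vector libraries. Pnoc, the precursor of nociceptin, had 9.63, 11.6, 12.97 and 9.65 CPM with the unmutated hairpin, against 18.2, 20.2, 19.5 and 20.7 with the 2-mutation hairpin, 40.5, 28.9, 35.4 and 29.3 with the 5-mutation hairpin and 28.1, 19.1, 22.8 and 24.6 with the empty vector. Nxph2 is the other of these genes. Summed CPM of 35 inhibitory-neuron markers, a list that holds Erbb4 and Nxph2 and in which no gene was at 0, ran between 895 and 1212 with the unmutated hairpin, 1195 and 1461 with the 2-mutation hairpin, 969 and 1271 with the 5-mutation hairpin and 2092 and 2377 with the empty vector. The part of these markers in the lower Erbb4, Nxph2 and Pnoc was not tested, and in bulk libraries fewer cells of a type and less RNA per cell cannot be told apart. Summed CPM of 20 pan-neuronal markers, none at 0, differed less, with 10665 to 11052 for the unmutated hairpin, 12010 to 12510 for the 2-mutation hairpin, 11597 to 12062 for the 5-mutation hairpin and 11675 to 12239.8 for the empty vector.

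A further 17 genes belong to the secretory pathway and membrane traffic, with ratios between 0.376 and 0.645. Tpd52, a coiled-coil protein linked to vesicle traffic, had 23.5, 22.2, 22.6 and 21.8 CPM with the unmutated hairpin, against 61.5, 61.1, 57.7 and 59.7 with the 2-mutation hairpin, 109.9, 100.4, 103 and 102 with the 5-mutation hairpin and 80.1, 77.8, 76.2 and 76.9 with the empty vector. The 4 groups did not overlap, and the order was unmutated, 2-mutation, empty vector and 5-mutation. Mbtps2, the site-2 protease that releases SREBP and ATF6 from Golgi membranes, had 19.5, 21.2, 20.8 and 22.4 CPM with the unmutated hairpin, against 126, 131, 136 and 129 with the 2-mutation hairpin, 52.6, 56.1, 50.4 and 57.1 with the 5-mutation hairpin and 59.0, 57.7, 62.8 and 61.9 with the empty vector. The 2-mutation libraries were the highest for Mbtps2 by a wide margin. Cpd, a carboxypeptidase of the trans-Golgi network, had 82.9, 83.3, 92.6 and 88.1 CPM with the unmutated hairpin, against 211, 196, 215 and 216 with the 2-mutation hairpin, 336, 371, 345 and 356 with the 5-mutation hairpin and 247, 265, 271 and 269.9 with the empty vector.

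Pdia6, a protein disulfide isomerase, had 62.8, 61.5, 64.0 and 58.9 CPM with the unmutated hairpin, against 131, 119, 122 and 127 with the 2-mutation hairpin, 159, 137, 153 and 139 with the 5-mutation hairpin and 117, 112, 115 and 112 with the empty vector. Sec23a, a subunit of the COPII coat, had 97.0, 93.1, 98.9 and 93.8 CPM with the unmutated hairpin, against 185, 175, 177 and 182 with the 2-mutation hairpin, 154, 149, 153 and 154 with the 5-mutation hairpin and 229, 218, 223 and 214 with the empty vector. For Sec23a all 3 hairpins were below the empty vector without overlap. Edem3, which trims mannose from misfolded glycoproteins, had ratio 0.573, Atl1, an atlastin that shapes the endoplasmic reticulum, 0.529, Copb2, a COPI coat subunit, 0.628 and Chgb, a granin of dense-core vesicles, 0.645. Sdcbp (syntenin), a scaffold of membrane traffic, had 58.8, 56.8, 61.5 and 57.3 CPM with the unmutated hairpin, against 170.4, 187, 182 and 185 with the 2-mutation hairpin, 246, 239, 254 and 256 with the 5-mutation hairpin and 104, 109, 106 and 112 with the empty vector. Both mutated hairpins were far above the empty vector in Sdcbp.

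Another 18 genes act in metabolism or in responses to stress, and 10 of these held the 8 letters. Hif1a, the oxygen-regulated subunit of hypoxia-inducible factor, had 62.9, 61.3, 67.6 and 63.3 CPM with the unmutated hairpin, against 154, 157, 161 and 153 with the 2-mutation hairpin, 109.7, 115, 113 and 122 with the 5-mutation hairpin and 119, 116, 119 and 117 with the empty vector. Its unmutated-hairpin mean was 63.8 ± 2.72 CPM, against 156 ± 3.67 with the 2-mutation hairpin, 115 ± 5.21 with the 5-mutation hairpin and 118 ± 1.72 with the empty vector (SD, n = 4 each). Ddit4 (REDD1), a stress-induced inhibitor of mTORC1, had 31.6, 29.1, 30.5 and 29.6 CPM with the unmutated hairpin, against 56.4, 58.3, 56.5 and 57.4 with the 2-mutation hairpin, 106, 106, 113 and 104 with the 5-mutation hairpin and 92.9, 90.5, 94.9 and 91.7 with the empty vector. Here the 2-mutation hairpin lay between the unmutated hairpin and the other 2 groups.

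Epm2a (laforin), a phosphatase that acts on glycogen, had 16.1, 15.4, 15.6 and 15.7 CPM with the unmutated hairpin, against 48.2, 47.8, 50.9 and 48.3 with the 2-mutation hairpin, 38.6, 43.0, 33.1 and 43.5 with the 5-mutation hairpin and 49.2, 46.4, 48.8 and 42.2 with the empty vector. Rrm2b, a p53-inducible subunit of ribonucleotide reductase, had 15.5, 17.3, 17.2 and 17.2 CPM with the unmutated hairpin, against 41.3, 39.2, 41.4 and 41.3 with the 2-mutation hairpin, 40.7, 45.5, 38.2 and 42.6 with the 5-mutation hairpin and 41.4, 41.7, 43.4 and 39.2 with the empty vector. In Rrm2b the 12 other libraries overlapped among groups, and only the unmutated-hairpin libraries stood apart. Cox6c, a subunit of cytochrome c oxidase, had 50.2, 47.99, 46.5 and 46.8 CPM with the unmutated hairpin, against 129, 137, 126 and 120.4 with the 2-mutation hairpin, 81.8, 74.95, 87.1 and 81.2 with the 5-mutation hairpin and 109, 102, 102 and 99.7 with the empty vector. Its 5-mutation libraries were below the empty-vector libraries, and its 2-mutation libraries above them.

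Lpl, the lipase that releases fatty acids from lipoproteins, had 7.30, 8.58, 7.32 and 8.90 CPM with the unmutated hairpin, against 13.7, 11.7, 14.3 and 15.4 with the 2-mutation hairpin, 18.1, 17.7, 22.2 and 24.2 with the 5-mutation hairpin and 41.5, 42.0, 43.3 and 45.0 with the empty vector. All 3 hairpins lay below the empty vector, the unmutated hairpin lowest. Pfkfb3, a bifunctional enzyme that drives glycolysis by making fructose 2,6-bisphosphate, had 31.5, 29.99, 33.8 and 36.9 CPM with the unmutated hairpin, against 58.8, 50.7, 55.2 and 57.7 with the 2-mutation hairpin, 63.7, 61.8, 53.6 and 56.1 with the 5-mutation hairpin and 73.8, 66.0, 65.8 and 59.1 with the empty vector. Bach1, a haem-regulated repressor of oxidative stress genes, had ratio 0.509, Ccng2, a cyclin of arrested cells, 0.602 and Prdx6, a peroxiredoxin, 0.599.

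A set of 15 genes act in transcription, RNA metabolism, transport into the nucleus, repair or kinase signalling. Med9, a Mediator subunit, had 11.5, 10.3, 10.4 and 10.8 CPM with the unmutated hairpin, against 36.2, 38.5, 35.3 and 39.4 with the 2-mutation hairpin, 28.5, 27.1, 30.7 and 25.9 with the 5-mutation hairpin and 30.2, 30.9, 30.5 and 30.8 with the empty vector. Dusp8, a phosphatase of stress-activated kinases, had 91.4, 93.7, 102 and 93.3 CPM with the unmutated hairpin, against 301, 298, 311 and 305 with the 2-mutation hairpin, 177, 195, 192 and 188 with the 5-mutation hairpin and 165, 185, 183 and 176 with the empty vector. Mapk6 (ERK3) had 44.0, 43.1, 51.03 and 39.3 CPM with the unmutated hairpin, against 139.5, 130.4, 143 and 143 with the 2-mutation hairpin, 76.9, 72.2, 74.3 and 72.8 with the 5-mutation hairpin and 87.9, 83.1, 85.0 and 82.1 with the empty vector. In Med9, Dusp8 and Mapk6 the 2-mutation libraries were the highest of the 4 groups, with no overlap.

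The ubiquitin system accounts for 7 genes, with ratios between 0.534 and 0.641. Atxn3, the deubiquitinase ataxin-3, had 17.8, 20.7, 21.8 and 22.1 CPM with the unmutated hairpin, against 42.7, 42.0, 43.5 and 42.7 with the 2-mutation hairpin, 42.1, 46.2, 42.7 and 49.5 with the 5-mutation hairpin and 38.2, 38.0, 39.1 and 39.1 with the empty vector. Usp15, another deubiquitinase, had 68.8, 73.5, 83.3 and 75.7 CPM with the unmutated hairpin, against 124, 119.5, 121 and 122 with the 2-mutation hairpin, 151, 162, 149 and 162 with the 5-mutation hairpin and 172, 172, 175 and 172 with the empty vector. Rbx1, the RING subunit of cullin ligases, had ratio 0.624, Otud6b 0.601 and Klhl18, a cullin adaptor, 0.641. Cilia or centrosomes account for 5 genes. Ccp110, which caps centrioles and restrains cilium growth, had 19.0, 21.5, 22.4 and 21.3 CPM with the unmutated hairpin, against 63.1, 62.5, 60.8 and 62.9 with the 2-mutation hairpin, 53.4, 54.7, 54.5 and 55.2 with the 5-mutation hairpin and 42.8, 46.8, 47.0 and 45.3 with the empty vector. Stk36 (fused), a kinase needed for motile cilia, had 5.67, 5.47, 5.33 and 4.18 CPM with the unmutated hairpin, against 26.5, 26.2, 26.6 and 24.8 with the 2-mutation hairpin, 15.1, 15.2, 12.8 and 13.3 with the 5-mutation hairpin and 9.22, 8.20, 9.22 and 7.23 with the empty vector. The 2-mutation libraries were the highest in both.

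**Figure D2:**
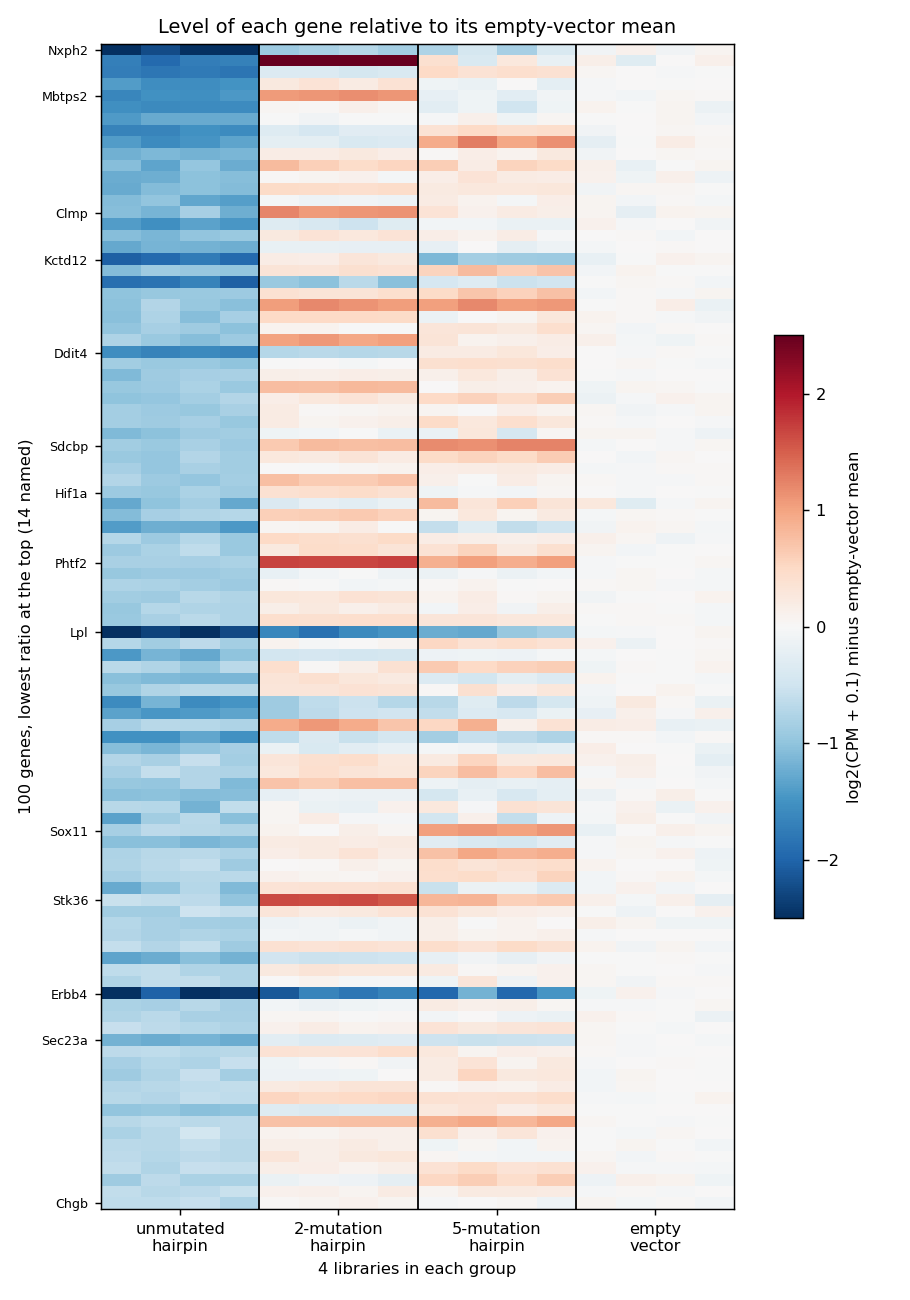
Level of each of the 100 genes (rows, lowest ratio at the top) in the 16 libraries (columns, 4 per group), as log2(CPM + 0.1) minus the gene's empty-vector mean. Blue is lower and red higher than the empty vector; the unmutated-hairpin columns are blue in all rows, which the rule fixed, while the mutated-hairpin columns hold both colours, from Nefm with the 2-mutation hairpin to Erbb4 and Lpl with both.

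The comparisons between the 3 other groups hold no unmutated-hairpin library and were tested, although the rule touched them through the lowest of the 3 means. With the 2-mutation hairpin against the empty vector, 55 of the 100 genes were higher, 18 were lower and 27 did not pass the test. Over all 19479 genes, 63.3% passed in either direction, 32.5% higher and 30.8% lower. The median log2 fold change of the 100 was 0.19, against 0.10 over eligible genes and -0.01 over all genes. Among the 9971 eligible genes outside the 100, 46.0% were higher and 32.5% lower. The rule itself favours genes with no low mean among these 3 groups. With the 5-mutation hairpin against the empty vector, 40 were higher, 28 lower and 32 did not pass, where 54.9% of all genes passed, 28.4% higher and 26.5% lower. Among the eligible genes outside the 100, 34.02% were higher and 35.6% lower. The median was 0.08 for the 100, -0.00 over eligible genes and 0.03 over all genes. That split depended on the scaling: 55 were higher and 19 lower when libraries were scaled by column sums alone.

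With the 5-mutation hairpin against the 2-mutation hairpin, 28 of the 100 were higher, 45 lower and 27 did not pass, where 65.9% of all genes passed, 33.6% higher and 32.3% lower. Among the eligible genes outside the 100, 33.4% were higher and 46.4% lower, so the 45 lower genes were near the share of eligible genes. The median was -0.09 for the 100 and -0.10 over eligible genes. Scaling by column sums alone turned that split to 40 higher and 34 lower. The comparisons of the 2 mutated hairpins with the empty vector share the empty-vector libraries. Rrm2b, Tmem132d, Fgd3 and Dctn4 were among the genes that did not pass in either comparison, and their log2 fold changes with the mutated hairpins lay between -0.07 ± 0.05 (Rrm2b, 5-mutation) and 0.14 ± 0.07 (Tmem132d, 5-mutation).

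Among the genes that moved most, Nefm rose with the 2-mutation hairpin against the empty vector (log2 fold change 2.73 ± 0.17, adjusted p = 5.12e-09) and did not pass with the 5-mutation hairpin (-0.03 ± 0.16, adjusted p = 0.879). The difference between the mutated hairpins themselves was -2.76 ± 0.17 for the 5-mutation against the 2-mutation hairpin (adjusted p = 3.6e-09). Phtf2 rose with both, by 1.74 ± 0.04 with the 2-mutation hairpin (adjusted p = 3.97e-19) and 0.89 ± 0.04 with the 5-mutation hairpin (adjusted p = 6.64e-14). Stk36 (1.68 ± 0.08), Clmp (1.18 ± 0.08), Mbtps2 (1.17 ± 0.05) and Ankrd45 (1.16 ± 0.06) were the next highest with the 2-mutation hairpin, at adjusted p of at most 5.02e-10.

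Sdcbp (1.13 ± 0.05), Ankrd45 (1.01 ± 0.06), Sox11 (0.97 ± 0.06) and 4930402H24Rik (0.84 ± 0.04) were higher with the 5-mutation hairpin than with the empty vector, at adjusted p of at most 1.17e-11. Sox11 was higher with the 5-mutation than with the 2-mutation hairpin by 0.85 ± 0.06 on the log2 scale (adjusted p = 9.94e-12), Ddit4 by 0.77 ± 0.04 (adjusted p = 3.11e-13), Tpd52 by 0.66 ± 0.04 (adjusted p = 2.58e-12), Pnoc by 0.63 ± 0.13 (adjusted p = 0.00035) and Cpd by 0.61 ± 0.05 (adjusted p = 2.86e-10).

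Among the genes that fell, Erbb4 had log2 fold changes against the empty vector of -1.75 ± 0.20 with the 2-mutation hairpin (adjusted p = 4.51e-06) and -1.68 ± 0.20 with the 5-mutation hairpin (adjusted p = 8.57e-06). Lpl had -1.58 ± 0.11 (adjusted p = 2.74e-10) and -1.14 ± 0.10 (adjusted p = 3.01e-08) in the same comparisons, and Nxph2 -0.77 ± 0.12 (adjusted p = 1.69e-05) and -0.68 ± 0.12 (adjusted p = 9.31e-05). These 3 genes were therefore lower with every hairpin, and their means were lowest with the unmutated hairpin. Ankrd29 (-0.86 ± 0.08), Zmat4 (-0.65 ± 0.10) and Ddit4 (-0.64 ± 0.04) also fell with the 2-mutation hairpin against the empty vector, at adjusted p of at most 1.1e-05.

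Kctd12 fell with the 5-mutation hairpin against the empty vector (-1.03 ± 0.08, adjusted p = 1.04e-09) but was higher with the 2-mutation hairpin (0.27 ± 0.07, adjusted p = 0.00351). Spats2l (-0.79 ± 0.07) and Sec23a (-0.61 ± 0.04) also fell with the 5-mutation hairpin, at adjusted p of at most 9.66e-10. Between the mutated hairpins, Mbtps2 (-1.40 ± 0.05), Kctd12 (-1.30 ± 0.08), Clmp (-1.06 ± 0.08), Mapk6 (-1.04 ± 0.06) and Stk36 (-1.02 ± 0.08) were lower with the 5-mutation than with the 2-mutation hairpin, at adjusted p of at most 1.6e-09. The 6 highest and 6 lowest changes of each of these 3 comparisons (36 in all) were refitted without each library in turn, and all 36 kept their direction and call.

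**Figure D3:**
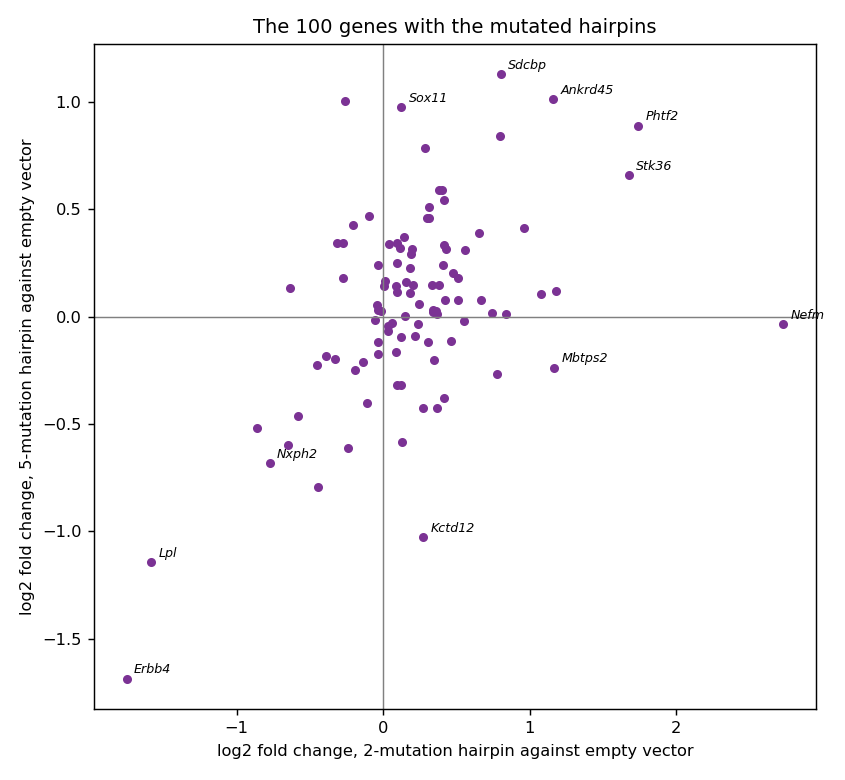
Log2 fold change of each of the 100 genes (points) with the 2-mutation hairpin against the empty vector (horizontal) and the 5-mutation hairpin against the empty vector (vertical). Most points lie near 0 on both axes; Nefm stands at 2.73 on the horizontal axis alone, Erbb4 and Lpl are low on both axes, and both axes share the empty-vector libraries.

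By rank, the 8-letter string was found in 48% of the genes ranked 1 to 25, 32% of those ranked 26 to 50, 32% of those ranked 51 to 75 and 44% of those ranked 76 to 100. Among the genes just outside, the share was 21% at ranks 101 to 200, 10.1% at 201 to 300, 15% at 301 to 400 and 14.3% at 401 to 500. Of the 100 genes, 39 held all 8 letters, 36 at least 1 of the 7-letter parts without all 8, 5 the 6 letters common to both parts, and 20 none of these. Nefm, Tmem132d and Fgd3 were among those with none, and Nxph2 and Bach1 among those with the 6 letters.

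The strand and the place of the string were unequal. The string was picked for its excess on the transcript strand of these same 3′ UTRs, which favours such a difference. The values are therefore a description. The reverse complement TGTTTCAT was in 12% of the 100 genes and 6.59% of eligible genes. Per kilobase of 3′ UTR the 8 letters occurred 0.189 times in the 100 genes and 0.0274 times in eligible genes, and the reverse complement 0.0473 and 0.0382 times. In coding sequence the 8 letters occurred 0.0745 times per kilobase in the 100 genes and 0.0248 times in eligible genes. The 3′ UTRs of the 100 genes were longer, with a median of 2231 against 1408 bases, and had a lower GC content, with a median of 39.8% against 44.3%. Among genes with a 3′ UTR shorter than the eligible median, 7 of 31 of the 100 genes held the 8 letters, against 76 of 5002 eligible genes. Of the 100 genes, 8 held the string at 2 or more places, against 42 of the 10006 eligible genes.

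By role, the 8 letters were in 10 of 18 genes of metabolism and stress, 6 of 16 neuronal genes, 4 of 17 of the secretory pathway and membrane traffic, 4 of 15 of gene expression and signalling, 3 of 7 of the ubiquitin system and 2 of 5 of cilia and centrosomes. In the secretory group 11 others held a 7-letter part. In the tested comparison of the 2-mutation hairpin with the empty vector, 20 of the 39 genes with the 8 letters were higher and 8 lower, 24 of the 36 with a 7-letter part were higher and 5 lower, and 11 of the 25 remaining were higher and 5 lower. With the 5-mutation hairpin the counts were 14 higher and 14 lower, 15 and 9, and 11 and 5. Among eligible genes outside those chosen, 46.0% were higher and 32.5% lower with the 2-mutation hairpin, and 34.02% and 35.6% with the 5-mutation hairpin. Of these, genes with the 8 letters were more often lower, with 36.8% higher and 47.0% lower, and 30.5% and 41.3%, in the same order. Those with a 7-letter part had 39.9% and 40.5%, and 29.3% and 44.3%. The difference from the chosen genes was not tested.

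Of 1738 mature mouse microRNAs in RefSeq, 1 had bases 2 to 8 that pair with ATGAAAC. It is shown with its seed in capitals because the 8-letter string is the complement of that seed followed by the A that commonly lies opposite a guide's first base.
mmu-miR-7675-3p, GRCm38.p6 chr12:11299924-11299944, plus strand: uGUUUCAUuuguucgugacuc
Small RNAs were not measured in these libraries, and the sequence of the hairpin's guide is not given in the sources used here, so its pairing with the string was not tested.

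**Figure D4:**
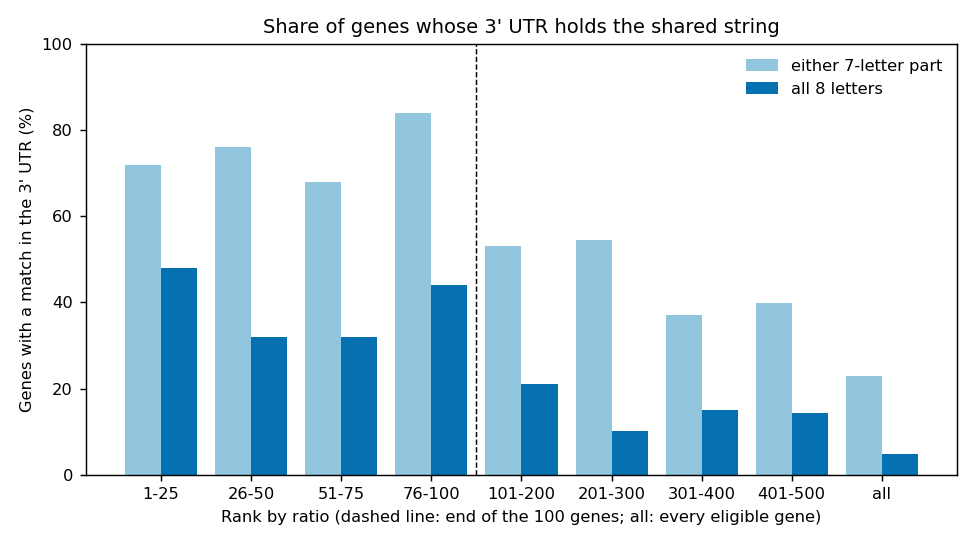
Percent of genes (bars, from 0) whose longest annotated 3′ UTR holds the 8 letters or either 7-letter part, by rank of the ratio. The 8-letter share is between 32% and 48% in the 4 bins of the 100 genes, between 10.1% and 21% in the next 4 bins and 4.82% over all eligible genes.

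Genes outside the 100 were grouped by the same string, and their fold changes are given as a description. With the unmutated hairpin against the empty vector, the 443 genes with the 8 letters had a median log2 fold change of -0.24, with 9.71% higher and 58.5% lower. The 1769 with a 7-letter part had -0.11, with 16.9% higher and 44.8% lower. The 1473 with the 6 letters had -0.01, with 24.4% higher and 30.6% lower, and the 6221 with none had 0.04, with 30.6% higher and 20.6% lower. The fold changes thus ran in the order of match length. In the 34 genes that held the 8 letters at 2 or more places the median was -0.39 and 73.5% were lower. The 249 genes that held only the reverse complement, whose median UTR was 2008 bases, had a median of 0.03, with 30.5% higher and 25.3% lower. The 34 genes were also low with the 2-mutation hairpin against the empty vector, with a median of -0.34 and 64.7% lower. With the 5-mutation hairpin they had -0.12 and 38.2% lower. Their median for the unmutated against the 2-mutation hairpin was 0.08, with 47.1% higher and 32.4% lower.

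The median UTR length ran in the same order, 3153 bases with the 8 letters, 2625 with a 7-letter part, 2219 with the 6 letters and 934 with none, and its part in these medians was not tested. With the 2-mutation hairpin against the empty vector the median fold changes also ran in the order of match length. They were -0.08 with the 8 letters, 0.002 with a 7-letter part, 0.05 with the 6 letters and 0.13 with none. In that comparison 47.0% of genes with the 8 letters and 28.5% of those with none were lower. With the 5-mutation hairpin the medians were -0.07 with the 8 letters, -0.08 with a 7-letter part, -0.01 with the 6 letters and 0.02 with none. There the 8 letters were not the lowest. The unmutated against the 2-mutation hairpin gave -0.16 with the 8 letters (50.8% lower) and -0.09 with none (45.7% lower). Against the 5-mutation hairpin it gave -0.15 with the 8 letters (49.9% lower) and 0.01 with none (32.7% lower).

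Per library, the median of log2 CPM centred on each gene's mean was lower in genes with the 8 letters than in genes with none by 0.22, 0.14, 0.10 and 0.12 with the unmutated hairpin and by 0.07, 0.07, 0.04 and 0.08 with the 2-mutation hairpin. It was higher by 0.00, 0.14, 0.00 and 0.09 with the 5-mutation hairpin and by 0.11, 0.16, 0.17 and 0.13 with the empty vector. The unmutated-hairpin libraries were the 4 lowest of the 16. Of the 5-mutation libraries only replicate 2 (0.14) lay within the empty-vector range, and the others lay below every empty-vector library.

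**Figure D5:**
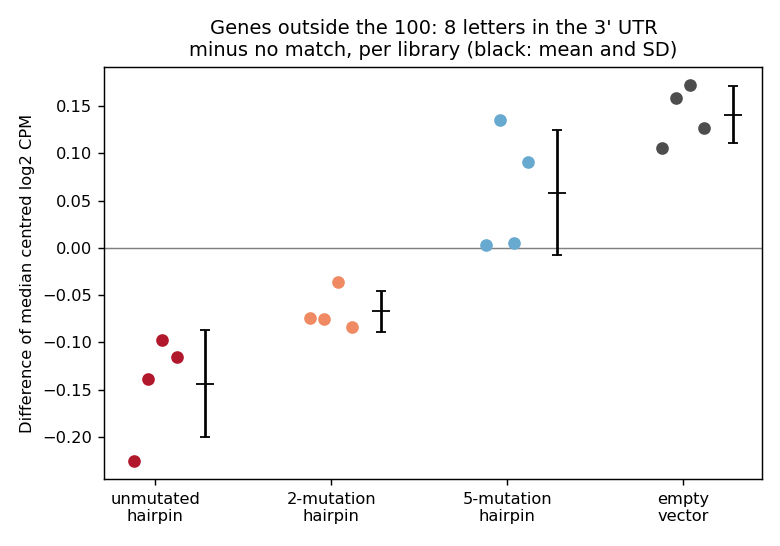
Median centred log2 CPM of genes outside the 100 with the 8 letters minus that of genes with none (vertical axis), for the 4 libraries of each group. Coloured points are libraries and black marks the mean and SD; the 4 unmutated-hairpin points are the lowest and the empty-vector points lie between 0.11 and 0.17.

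Genes that share a pathway with members of the 100 were described from lists of related genes, leaving the members out. In the comparison of the unmutated hairpin with the empty vector, 20.8% of all genes tested were higher and 19.5% lower. In it, 0 of 33 inhibitory-neuron genes were higher and 27 lower (median log2 fold change -1.01, against 0.01 over all genes), among them Nxph1 (-2.12) and Lhx6 (-1.69). In glycolysis, the pathway of Pfkfb3, 0 of 19 were higher and 18 lower (median -0.48), among them the enzymes Eno1 (-1.03) and Pgam1 (-1.02). Among neurexins and their ligands, 2 of 19 were higher and 14 lower (median -0.27), and Cbln1, a secreted neurexin ligand, had -0.98. Of 18 pan-neuronal genes 0 were higher and 11 lower (median -0.29), with Nefh, the heavy neurofilament subunit, at -1.85. With the 5-mutation hairpin against the empty vector (28.4% of all genes higher, 26.5% lower), 2 inhibitory-neuron genes were higher and 27 lower (median -1.24). Glycolysis had 1 and 16 (-0.70), neurexins and ligands 0 and 14 (-0.69) and pan-neuronal genes 4 and 9 (-0.20). With the 2-mutation hairpin (32.5% and 30.8%) inhibitory-neuron genes had 5 and 22 (-0.73) and glycolysis 3 and 12 (-0.20). Neurexins and ligands had 7 and 8 (0.12) and pan-neuronal genes 8 and 8 (0.03).

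Again with the unmutated hairpin against the empty vector, of 7 ErbB receptors and neuregulins 0 were higher and 3 lower (median -0.29). Of 13 genes of lipoprotein uptake and lipolysis 3 were higher and 5 lower (median -0.13), and of 22 cadherins 10 were higher and 7 lower (median 0.13). For cell types other than neurons, beside the same shares of 20.8% higher and 19.5% lower over all genes, of 18 astrocyte markers 2 were higher and 2 lower, of 10 of the oligodendrocyte lineage 5 were higher and 0 lower, of 6 of microglia 2 were higher and 1 lower, and of 9 of endothelial and mural cells 1 was higher and 2 lower. Among 18 excitatory-neuron markers 6 were higher and 5 lower. Of 15 genes of the RNAi machinery, which the hairpins share with microRNAs, 8 were higher and 3 lower.

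The 100 genes followed a common profile over the 16 libraries: Pearson's r of each gene with the mean of the standardised log2 CPM of all 100 had a median of 0.943 and a lowest value of 0.558, a description that the choice of genes fixes in part. Outside the 100, the 10 genes most like that profile were Ttc17 (r = 0.976), Nudcd1, Dnajc15, Sufu, Ube2f, Rap2a, Slitrk3, Lrsam1, Angel2 and Mob1b (r = 0.964), over 16 libraries. Slitrk3, an inhibitory synapse adhesion protein, had ratio 0.679 and Sufu, a repressor of hedgehog signalling, 0.692. The labels do not state whether counting used the strand, and 27 of the 100 genes overlap an exon of a gene on the opposite strand, Nefm, Rrm2b, Prmt8, Kctd12, Hif1a, Cox6c, Usp15, Clmp, Pdia6, Sdcbp, Dusp8 and Sec23a among those named, so their reads may include the partner's.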

How the data were processed

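The deposited table holds raw counts per gene, which the authors made with featureCounts after STAR 2.7.2b alignment to GRCm38.p6, Trim Galore 0.6.0 and cutadapt 1.15, per the submitters' processing notes; total RNA was ribodepleted and libraries were directional, per the labels' protocols. The counting strand, multi-mapping rule and annotation release are not given in the sources used here.

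The members, role groups and gene lists were chosen with earlier results of these data known. Genes passing filterByExpr (19479) were fitted with edgeR 4.0.16 (R 4.3.3), TMM scaling, robust quasi-likelihood, 1 coefficient per group and all 16 libraries; the call was a 2-sided Benjamini-Hochberg adjusted p below 0.05. SE is the fold change divided by the square root of F. CPM printed per library use column sums. Named genes were the first 30 by ratio, members of the lists and the 6 highest and lowest per tested comparison; other members were named by role after their values were seen, and some genes are not reported here. 3′ UTRs came from GENCODE vM21, the longest of at least 50 bases. Alternatives were DESeq2 1.42.0, other scalings and filters, a replicate block and each library left out. The fit was tested on simulated counts. Of 55335 gene IDs, 55154 matched GENCODE. Every library was used; within groups, chi-square over degrees of freedom was 3.46 to 24.2, so none was a copy.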

Additional observations from a re-analysis of the deposited data

Results flagged for a closer look

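Of 148 groups of 4 libraries 4 held a library far from the other 3 by Dixon's gap ratio; chance flags about 1 in 20 groups. Nefm had 14.3 CPM in replicate 2 with the unmutated hairpin, against 16.7 to 17.2 in the others. Rrm2b had 15.5 CPM in replicate 1 with the unmutated hairpin, against 17.2 to 17.3 in the others. Rrm2b also had 39.2 CPM in replicate 2 with the 2-mutation hairpin, against 41.3 to 41.4. Clmp had 43.7 CPM in replicate 2 with the empty vector, against 53.2 to 53.7.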

How the results depend on the processing

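Of the results recomputed under other settings, 1 changed direction: Rtn4 with the 5-mutation hairpin against the empty vector was 0.0173 with column sums only (adjusted p = 0.683), where TMM scaling gave -0.06 and neither passed the test. Column sums moved the median of all genes by 0.12 for the unmutated against the 2-mutation hairpin and by 0.14 for the 5-mutation against the 2-mutation hairpin. The 5-mutation splits of the 100 genes changed with it, as given above. The other values (366 for counts, shares and Rtn4, and 828 for single genes) kept their direction and call, or stayed within 1.5 times the original count. Of the 100 genes, 85 to 100 were also taken under the other settings, and the 8-letter share ran between 35% and 41%, the highest with any annotated 3′ UTR counted; the alternatives for this share were chosen after seeing the data.

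The labels number libraries 1 to 4 in each group without saying that a number marks a shared culture. Correlations of same-numbered libraries ran from -0.02 to 0.25 (median 0.09) and exceeded 0.1 in 11 of 24 pairs. The same number correlated best in 41 of 48 combinations, each with 4 candidate libraries. That is a hint from the data that a number may mark something shared, which was not tested. The main fit did not use the numbers as pairs. With a replicate block, 60 of the 100 genes were higher and 18 lower with the 2-mutation hairpin against the empty vector, and 42 higher and 29 lower with the 5-mutation hairpin. It ended no call among the 36 largest changes of the 100 genes refitted with it (6 higher and 6 lower in each comparison among the other 3 groups). Depth limits Nxph2 most among the genes named, with at most 3.13 CPM per unmutated-hairpin library.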
